A study of Mus musculus with 42 samples.

Results

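The genes described here run mitosis, the division of a cell's copied chromosomes between its daughters: the kinases that start it, the spindle and its motors, the kinetochores that hold the chromosomes, the checkpoint that delays their separation, and the apparatus that pinches the cell apart. A list of 40 such genes was named, and a member was measured where a probe set of the array carried its symbol and no other. Of the 40 members, 39 were measured, among 18194 genes in all. The cyclin gene Ccnb1 was not analysed here. Where a member had several probe sets, the one with the highest mean over all arrays stood for it.

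The study measured whole-lung RNA of newborn mice on Affymetrix 3' expression arrays, 1 mouse per array, in 14 groups of 3 mice (42 arrays). Knockout mice (KO, Nrf-/- in the labels) lack Nfe2l2, which codes for the oxidant-responsive transcription factor NRF2, and wild-type mice (WT, Nrf+/+) carry it. Hyperoxia groups of each genotype breathed at least 95% O2 for 23 h a day with foster dams, from P1 onward, and were taken at P2, P3 or P4. Air groups of each genotype covered 4 ages, P1 (the birthday) through P4. The deletion is in every cell of the mouse, and a lung homogenate mixes all cell types of the organ. A value below is an RMA level on the log2 scale, so a difference of 1 is a doubling. A gene was called where the adjusted p in limma was under 0.05 over all 18194 genes, and percentages of all genes called stand beside the members' counts. Differences are on the log2 scale and carry the standard error (SE) of the fit after the ± sign.

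Cells raise most of these RNAs late in the cell cycle and lose them after division, so their level in a tissue follows the cells that are between S phase and mitosis. Their promoters are held silent in resting cells by the DREAM complex and are switched on by B-MYB and FOXM1, through the CHR element and through the CCAAT boxes bound by NF-Y. After birth the mouse lung grows quickly while its saccules are divided into alveoli, and dividing endothelial, mesenchymal and epithelial cells contribute to that growth. In whole tissue, fewer dividing cells and less RNA per dividing cell cannot be told apart.

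RefSeq's promoter table (GRCm38.p6, 250 bases before to 50 after each start) holds 36 promoters of 33 measured members. Pbk, Tpx2, Ccna2, Kif20a, Aurkb and Foxm1 have no entry in it. The letters TTTGAA (the CHR element), read on both strands, occurred in 28 of the 36 promoters, or 77.8%, against 17.8% of 32815 promoters of other genes. Within 50 bases of the start they occurred in 72.2% of the members' promoters, against 4.87% of the others. CCAAT, read on both strands, occurred in 72.2% of the members' promoters and in 37.4% of the others, and at least 2 copies in 47.2% and 11.7%. Both motifs stood in 63.9% of the members' promoters, against 6.89% of the others. The letters TGACNNNGC, a core of the antioxidant response element that NRF2 binds, were found in 13.9% of the members' promoters and in 12.4% of the others, in the genes Anln, Bub1, Cenpe and Ect2. By gene, 21 of the 33 held both the CHR and a CCAAT box, and Birc5, Mad2l1, Melk, Nuf2 and Nusap1 held neither in this window. A match describes letters in a window and shows no binding.

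The 100 bases before the start are shown for 8 members that hold both motifs, chosen after the search to show how closely the pairs lie. Each sequence runs 5′ to 3′ on the gene's own strand, and capitals mark TTTGAA and CCAAT or their reverse complements.
Cdk1, chr10:69352913-69353012 (- strand): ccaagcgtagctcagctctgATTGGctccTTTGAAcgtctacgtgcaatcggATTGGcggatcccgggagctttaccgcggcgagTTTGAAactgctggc
Top2a, chr11:99024190-99024289 (- strand): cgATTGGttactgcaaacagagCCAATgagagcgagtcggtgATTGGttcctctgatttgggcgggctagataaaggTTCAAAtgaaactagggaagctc
Ube2c, chr2:164769829-164769928 (+ strand): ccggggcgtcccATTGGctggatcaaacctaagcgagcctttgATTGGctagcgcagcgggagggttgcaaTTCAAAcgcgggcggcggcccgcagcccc
Cdc20, chr4:118437344-118437443 (- strand): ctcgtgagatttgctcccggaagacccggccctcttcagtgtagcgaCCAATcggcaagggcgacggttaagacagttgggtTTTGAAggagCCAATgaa
Kif11, chr19:37376282-37376381 (+ strand): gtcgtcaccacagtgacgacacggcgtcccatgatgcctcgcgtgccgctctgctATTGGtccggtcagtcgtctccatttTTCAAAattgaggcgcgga
Kif22, chr7:127042421-127042520 (- strand): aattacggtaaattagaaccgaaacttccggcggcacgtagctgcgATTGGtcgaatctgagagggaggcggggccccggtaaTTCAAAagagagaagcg
Prc1, chr7:80294376-80294475 (+ strand): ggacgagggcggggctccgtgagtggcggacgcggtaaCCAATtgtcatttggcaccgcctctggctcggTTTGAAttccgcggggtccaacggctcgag
Depdc1a, chr3:159495333-159495432 (+ strand): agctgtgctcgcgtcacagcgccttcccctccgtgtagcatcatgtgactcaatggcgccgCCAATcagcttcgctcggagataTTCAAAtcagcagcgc
In each of the 8 a CHR stands in the later part of the 100 bases, near the start, with at least 1 CCAAT box upstream of it. Cdk1 carries 2 CHR elements and 2 CCAAT boxes in these 100 bases, and Top2a carries 3 CCAAT boxes.

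**Figure D1:**
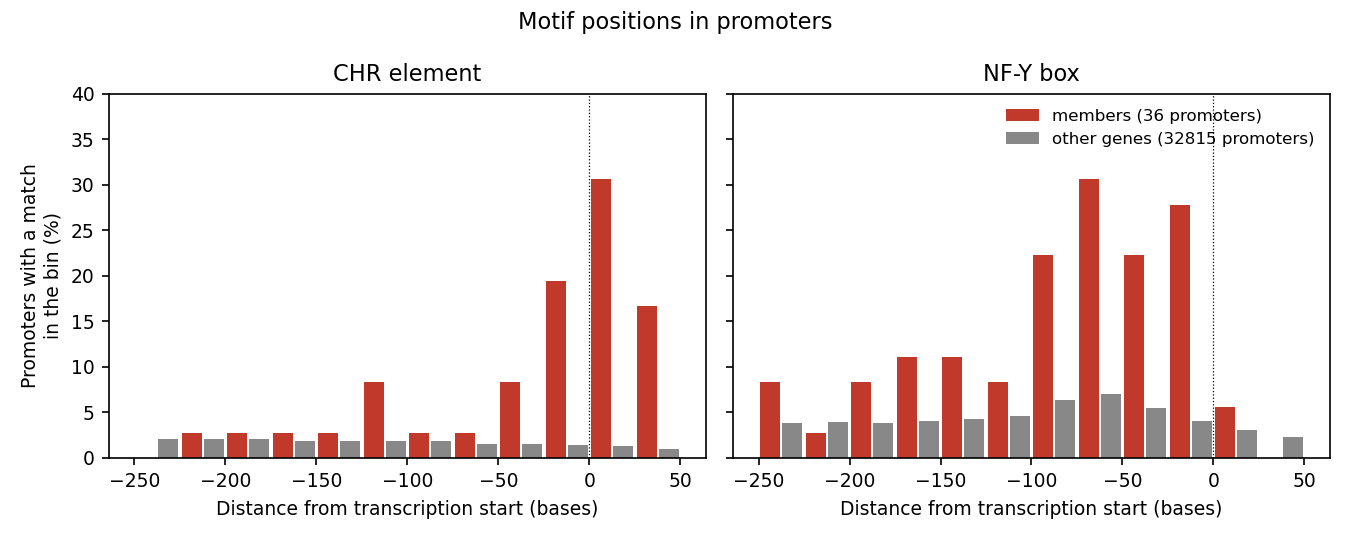
Share of promoters (vertical axis, percent) with the CHR element (left) or the NF-Y box, CCAAT (right), starting in each 25-base bin of distance from the transcription start (horizontal axis, bases). Red bars are the 36 promoters of members and grey bars the 32815 promoters of other genes. The members' CHR matches pile up around the start, and their CCAAT boxes lie mostly in the 100 bases before it.

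The Nfe2l2 probe set checked the genotypes first: its level was lower in KO than in WT lungs by 5.75 to 6.38 log2 units in the 7 pairs of groups. Median levels of the arrays lay between 6.31 and 6.41. Several arrays were high in marker genes of other tissues. Whether that RNA came from those tissues was not tested. Taking the mean deviation of a marker list from its mean over all arrays as a score, 13 arrays passed a score of 2. Liver genes did so on 7 WT arrays and 1 KO array, heart muscle genes on 3 WT arrays, skeletal muscle genes on 1 KO array (air P3) and thymocyte genes on 2 KO arrays (air P2). All 3 WT air arrays at P2 are among the 13 (liver genes on 2, heart muscle genes on 1), so no comparison with that group can be given without such arrays. For these the fit with tissue scores as covariates is given, and counts in other comparisons that moved by over 1.5 times without the 13 arrays are given both ways here or among the alternatives.

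In air the mitotic genes climbed steeply over the days after birth in both genotypes. At P4 against P1, all 39 members were called higher in KO lungs, where 8.09% of all genes were, and all 39 in WT lungs, where 11.2% were. The median difference over the members was 2.82 in KO lungs and 2.49 in WT lungs, against -0.06 and 0.01 over all genes. Every KO array at P4 lay above every KO array at P1 in all 39, which held for 11.9% of all genes, and likewise in WT lungs, where it held for 19.9%. The differences ran from 0.80 (Foxm1) to 3.76 (Depdc1a) in KO lungs and from 0.58 (Foxm1) to 3.51 (Depdc1a) in WT lungs. Both counts stayed at 39 when any 1 array was left out. Thymocyte genes scored 0.067 to 0.517 at P4 and -0.441 to -0.248 at P1 in KO lungs. In WT lungs they scored -0.408 to 0.189 at P4 and -0.522 to -0.406 at P1. Their part in this rise was not tested. The test of the difference between genotypes in this rise called 0 members in limma (0 at an unadjusted p under 0.05), against 0.0275% of all genes.

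The member score, the mean deviation of the 39 members from their own means over all arrays, summarises each array. In KO air lungs it averaged -1.644 ± 0.405 at P1, 0.005 ± 0.813 at P2, -0.189 ± 0.431 at P3 and 1.028 ± 0.176 at P4 (mean ± SD, n = 3). In WT air lungs it averaged -1.477 ± 0.063 at P1, -0.132 ± 0.38 at P2, 0.663 ± 0.105 at P3 and 0.986 ± 0.047 at P4. The WT means were higher at each later age, while the KO mean at P3 was no higher than that at P2. The 3 KO arrays at P2 spread widely, with scores of -0.766, -0.073 and 0.855. In hyperoxia the score averaged -0.072 ± 0.191 at P2, 0.17 ± 0.069 at P3 and -0.294 ± 0.449 at P4 in KO lungs. In WT lungs under hyperoxia it averaged 0.089 ± 0.591 at P2, 0.769 ± 0.179 at P3 and 0.097 ± 0.1 at P4. In neither genotype was P4 under hyperoxia the highest age.

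**Figure D2:**
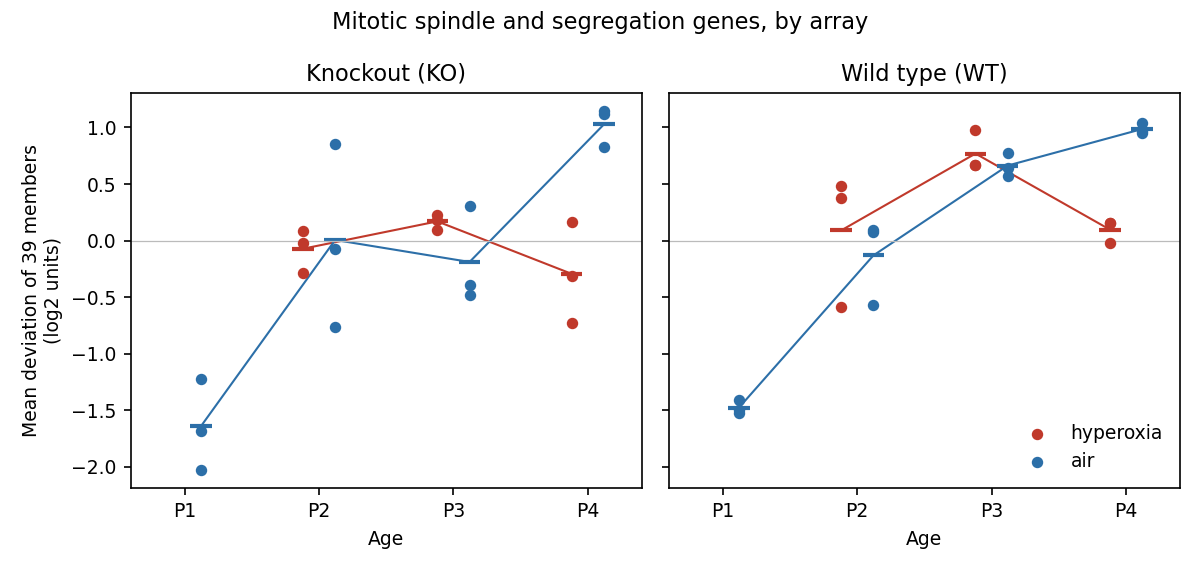
Mean deviation of the 39 members from their means over the 42 arrays (vertical axis, log2 units) by age (horizontal axis), in knockout (left) and wild-type lungs (right). Points are arrays, short bars are group means, red is hyperoxia and blue is air. At P4 the hyperoxia arrays lie below the air arrays in both genotypes.

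Day by day in air, most members were called higher by P2 in the main fit, but the KO calls were lost under several alternatives. At P2 against P1, 37 of 39 members were called higher in KO lungs (6.86% of all genes; median 1.76, against -0.04 over all genes) and 36 in WT lungs (6.25%; median 1.38, against -0.03). Nusap1, a microtubule bundler, moved among the most in KO lungs, and stood at 8.74, 9.43 and 10.44 at P2 against 6.64, 7.32 and 7.86 at P1, 2.27 ± 0.34, adjusted p = 6.20e-05. The exceptions were Foxm1 and Ndc80 in KO lungs (0.09 ± 0.11, adjusted p = 0.644 and 0.73 ± 0.25, adjusted p = 0.0517). In WT lungs they were Foxm1, Kif4 and Nek2, at 0.04, 0.55 and 0.66. The median member had reached 62.1% of its P4 rise by P2 in KO lungs, between 10.9% (Foxm1) and 78.4% (Nusap1). In WT lungs it had reached 53.8%, between 6.4% (Foxm1) and 66.3% (Mki67). Thymocyte genes moved in the same KO comparison: 12 of their 13 measured genes were called higher, and their score was 0.725 to 3.343 on the KO air arrays at P2, against -0.441 to -0.248 at P1. With the 2 KO arrays high in thymocyte genes left out, 1 array remains at P2, the members' median is 0.93 and 0 members were called. With the scores of liver, heart, skeletal muscle and thymocytes as covariates the median was 0.51 and 0 members were called. A fit on the 6 KO arrays of this comparison alone also called 0. Whether thymus RNA has a part in the KO values at P2 was not tested. In WT lungs thymocyte genes scored -0.175 to 0.017 at P2, and 0 of 13 were called. All 3 WT arrays at P2 were high in liver or heart muscle genes, and with the tissue scores as covariates 37 members were called higher in WT lungs, at a median of 1.28. Markers of lung cell types moved in the same comparison. In WT lungs 8 of 9 alveolar type 2, 6 of 8 alveolar type 1 and 5 of 10 endothelial genes were called lower and 4 of 10 fibroblast genes higher. In KO lungs 5 of 9 alveolar type 2, 4 of 8 alveolar type 1, 1 of 10 endothelial and 1 of 10 fibroblast genes were called lower. In either direction, 2638 of 18194 genes were called in WT and 2427 in KO lungs. The part of these cell types in the result was not tested.

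At the next daily step no member was called in KO lungs, and a few were called higher in WT lungs. At P3 against P2, 0 of 39 members were called in KO lungs by limma (2 at an unadjusted p under 0.05; 19.1% of all genes), with a median of -0.17. Without KO air P2 replicate 2, the array with the lowest member score at P2, 14 were called lower. The direction turned under other settings. The median was 0.59 with 0 called without the 2 KO arrays high in thymocyte genes, 0.75 with 6 called higher without every array high in another tissue, and 1.06 with 1 called higher with the tissue scores as covariates. It was 0.23 with 1 called higher without KO air P2 replicate 1. In WT lungs, 3 were called higher (2.20% of all genes), namely Foxm1, Melk and Depdc1a, with a median over the members of 0.79 and 38 members at an unadjusted p under 0.05. In 38 of 39 members every WT array at P3 was above every WT array at P2, which held for 15.2% of all genes. Leaving out any 1 of these 6 WT arrays gave 0 or 1 calls. With the tissue scores as covariates 2 were called, at a median of 0.70. The difference between genotypes in this step was not tested. By P3 the median member had reached 54.0% of its P4 rise in KO lungs, between 32.7% (Ndc80) and 64.8% (Cenpf). In WT lungs it had reached 86.1%, between 71.9% (Foxm1) and 97.0% (Melk).

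On the last day the called rise was in KO lungs. At P4 against P3, 39 of 39 members were called higher in KO lungs (8.12% of all genes; median 1.25, against -0.02 over all genes). In all 39 every array at P4 lay above every array at P3, which held for 13.7% of all genes. Cep55, Kif2c and Hmmr moved most, by 1.64, 1.61 and 1.49, and Foxm1 least, by 0.46. In WT lungs 0 of 39 were called by limma (0 at an unadjusted p under 0.05; 0.00550% of all genes), at a median of 0.33. All 39 WT differences were positive, though members that move together do not count as separate observations. In 34 members every WT array at P4 lay above every WT array at P3, which held for 7.28% of all genes. The KO count fell to 24 without KO air P3 replicate 2, the array high in skeletal muscle genes, and to 4 with the tissue scores as covariates (median 0.72). With every array high in another tissue left out it was 38. Of the skeletal muscle list, 7 of 12 genes were called lower in the same KO comparison, with scores of -0.577 to -0.213 at P4 and 0.064 to 3.988 at P3. Thymocyte genes scored 0.067 to 0.517 at P4 and -0.289 to -0.082 at P3 in KO lungs. In WT lungs they scored -0.408 to 0.189 at P4 and -0.314 to 0.279 at P3. The part of these 2 lists in the result was not tested. The test of the difference between genotypes in this step called 0 members (20 at an unadjusted p under 0.05; 3.73% of all genes) and 3, all higher, without KO air P3 replicate 1. All 39 differences, which are not independent, were positive, with a median of 0.93.

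Between the genotypes in air, members were called at P3. At that age, 21 of 39 members were called lower in KO than in WT lungs, against 12.7% of all genes, and none was called higher. The median difference was -0.86, against 0.02 over all genes, and 35 members had an unadjusted p under 0.05. In 32 members every KO array lay below every WT array, which held for 21.6% of all genes. Melk, a protein kinase of dividing cells, stood at 7.36, 7.50 and 8.09 in KO lungs and at 8.81, 8.89 and 9.19 in WT lungs, a difference of -1.31 ± 0.29, adjusted p = 0.00126. Depdc1a stood at 6.55, 6.58 and 7.60 in KO and at 8.11, 8.16 and 8.23 in WT lungs (-1.26 ± 0.35, adjusted p = 0.00963). In both genes the highest KO array was below the lowest WT array. Mki67 followed with -1.21, and the smallest called difference was that of Kif4, a chromosome-arm kinesin, with -0.65 ± 0.20, adjusted p = 0.0154.

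The count at P3 moved with single arrays. It was 6 without KO air P3 replicate 2, 7 without replicate 3 and 34 without replicate 1 of that group, and 9 or 13 without WT air P3 replicate 1 or 3. KO air P3 replicate 1 had the highest member score of its group, 0.306. With the scores of other tissues as covariates 9 members were called, at a median of -0.68, and with every array high in another tissue left out 20 were. Skeletal muscle genes were higher in KO lungs in this comparison, 8 of 12 called, and liver genes had a median of -2.83 with 0 of 12 called. Lung cell lists moved too. Endothelial genes scored 0.161 to 0.289 in KO and -0.065 to 0.031 in WT lungs. Alveolar type 2 genes scored -0.042 to 0.163 and -0.344 to -0.125, and macrophage genes -0.628 to -0.385 and -0.272 to -0.166. Fibroblast and neutrophil scores overlapped. The part of these cell types in the result was not tested. At the other ages in air 0 members were called between KO and WT lungs by limma. At P1 the median was -0.15 (2 members at an unadjusted p under 0.05; 6.78% of all genes called). At P2 it was 0.14 (3 members; 13.1%), where 11 of 13 thymocyte genes were called higher in KO lungs, and at P4 it was 0.02 (2 members; 0.726%). Without KO air P2 replicate 2, 7 members were called higher in KO lungs at P2. The median at P2 turned to -0.64 with 0 called without the 2 KO arrays high in thymocyte genes, to -1.11 with 1 called lower with the tissue scores as covariates, and to -0.27 without KO air P2 replicate 1.

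The difference between genotypes in the change since P1 was tested directly. For P3 against P1, 4 of 39 members (10.3%) were called lower in KO minus WT, a share near the 7.92% of all genes called lower, with a median over the members of -0.66. These were Melk (-1.41 ± 0.41, adjusted p = 0.0196), Pbk, a mitotic kinase (-1.50 ± 0.50, adjusted p = 0.0455), Ndc80 of the outer kinetochore (-1.10 ± 0.36, adjusted p = 0.0392), and Ect2, which activates RhoA for cytokinesis (-1.08 ± 0.34, adjusted p = 0.0317). Pbk read 9.05, 9.17 and 9.96 at P3 and 7.35, 7.67 and 8.23 at P1 in KO lungs, and 10.45, 10.51 and 10.67 at P3 and 6.99, 7.44 and 7.76 at P1 in WT lungs. Ndc80 read 6.91, 6.91 and 7.48 at P3 and 6.13, 6.83 and 6.85 at P1 in KO lungs, and 7.75, 7.84 and 8.01 at P3 and 6.06, 6.19 and 6.56 at P1 in WT lungs. In both genes the WT arrays separated by age further than the KO arrays, which restates the call. With the tissue scores as covariates 0 members were called. Leaving out 1 of the 12 arrays gave 0 to 5 calls, with 0 without KO air P1 replicate 1, KO air P3 replicate 2 or WT air P3 replicate 1, and 1 without WT air P1 replicate 1 or KO air P3 replicate 3. It was 2 without WT air P1 replicate 3, WT air P3 replicate 3 or KO air P1 replicate 2.

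Hyperoxia made no called difference in the first days and a large one at P4. At P4, 39 of 39 members were called lower in hyperoxia than in air in KO lungs (14.7% of all genes called lower) and 27 of 39 in WT lungs (12.5%). The median difference was -1.29 in KO and -0.88 in WT lungs, against 0.04 and -0.03 over all genes. Every hyperoxia array lay below every air array in all 39 members in KO lungs, which held for 17.0% of all genes, and in all 39 in WT lungs, which held for 23.0%. In KO lungs the differences ran from -1.98 (Cenpf) to -0.53 (Foxm1). In WT lungs they ran from -1.54 (Depdc1a) to -0.22 (Foxm1, not called). The 12 WT members that were not called were Tpx2, Aurkb, Birc5, Top2a, Hmmr, Melk, Cenpe, Nek2, Nuf2, Ndc80, Pbk and Foxm1, all with negative differences.

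Of the members, Depdc1a stood at 5.85, 6.37 and 7.05 in KO hyperoxia lungs at P4 and at 8.20, 8.38 and 8.59 in KO air lungs, -1.97 ± 0.35, adjusted p = 5.19e-05. In WT lungs it stood at 6.73, 7.04 and 7.21 in hyperoxia and at 8.40, 8.52 and 8.66 in air, -1.54 ± 0.35, adjusted p = 0.00113. In both genotypes its highest hyperoxia array was below its lowest air array, as in all 39 members. Cenpf differed by -1.98 ± 0.34, adjusted p = 2.56e-05 in KO and -1.24 ± 0.34, adjusted p = 0.00535 in WT lungs. Kif20a, a kinesin of the central spindle, stood at 6.58, 7.26 and 8.08 in KO hyperoxia and 8.89, 9.18 and 9.24 in KO air lungs, and at 7.72, 7.81 and 7.91 in WT hyperoxia and 9.01, 9.17 and 9.20 in WT air lungs. It differed by -1.80 ± 0.35, adjusted p = 1.67e-04 in KO and -1.31 ± 0.35, adjusted p = 0.00493 in WT lungs. At the other end, Kif4 was called in both genotypes with -0.76 in KO and -0.66 in WT lungs.

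The lower levels at P4 left part of the postnatal rise in place. Measured against P1, the median member at P4 under hyperoxia was still higher by 1.38 in KO and by 1.59 in WT lungs. Of the rise that air lungs made by P4, hyperoxia lungs lacked 50.5% for the median member in KO, between 35.0% (Pbk) and 66.5% (Foxm1). WT lungs lacked 37.8%, between 15.6% (Pbk) and 54.7% (Cenpa). Tested directly, the KO minus WT difference in the hyperoxia effect at P4 called 0 members in limma (0 at an unadjusted p under 0.05; 0.561% of all genes). All 39 differences, which are not independent, were negative, with a median of -0.46. Between hyperoxia lungs at P4, KO minus WT had a median of -0.39 with 0 called (1 at an unadjusted p under 0.05; 9.82%), and 1 called lower without KO O2 P4 replicate 3. Leaving out any 1 array gave 36 to 39 calls in KO and 15 to 22 in WT lungs, with 15 without WT O2 P4 replicate 3, 16 without WT air P4 replicate 2 and 17 without WT air P4 replicate 1 or 3 or WT O2 P4 replicate 1. With every array high in another tissue left out the counts were 39 in KO and 33 in WT lungs. Among other lists in the same comparison, 6 of 10 macrophage genes were called higher in each genotype, and 5 of 10 fibroblast genes were called lower in each. Airway cell genes were called lower in 5 of 6 in KO and 4 of 6 in WT lungs, and neutrophil genes higher in 3 of 9 in each. Red cell precursor genes, another dividing population, were called lower in 1 of 11 in KO and 2 of 11 in WT lungs. These red cell counts lie near the shares of all genes called lower, 14.7% in KO and 12.5% in WT lungs. Thymocyte genes scored -0.221 to 0 in KO hyperoxia lungs and 0.067 to 0.517 in KO air lungs at P4. In WT lungs they scored -0.256 to 0.169 in hyperoxia and -0.408 to 0.189 in air. In either direction, 5760 of 18194 genes were called in KO and 5010 in WT lungs. The part of these cell types in the result was not tested.

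**Figure D3:**
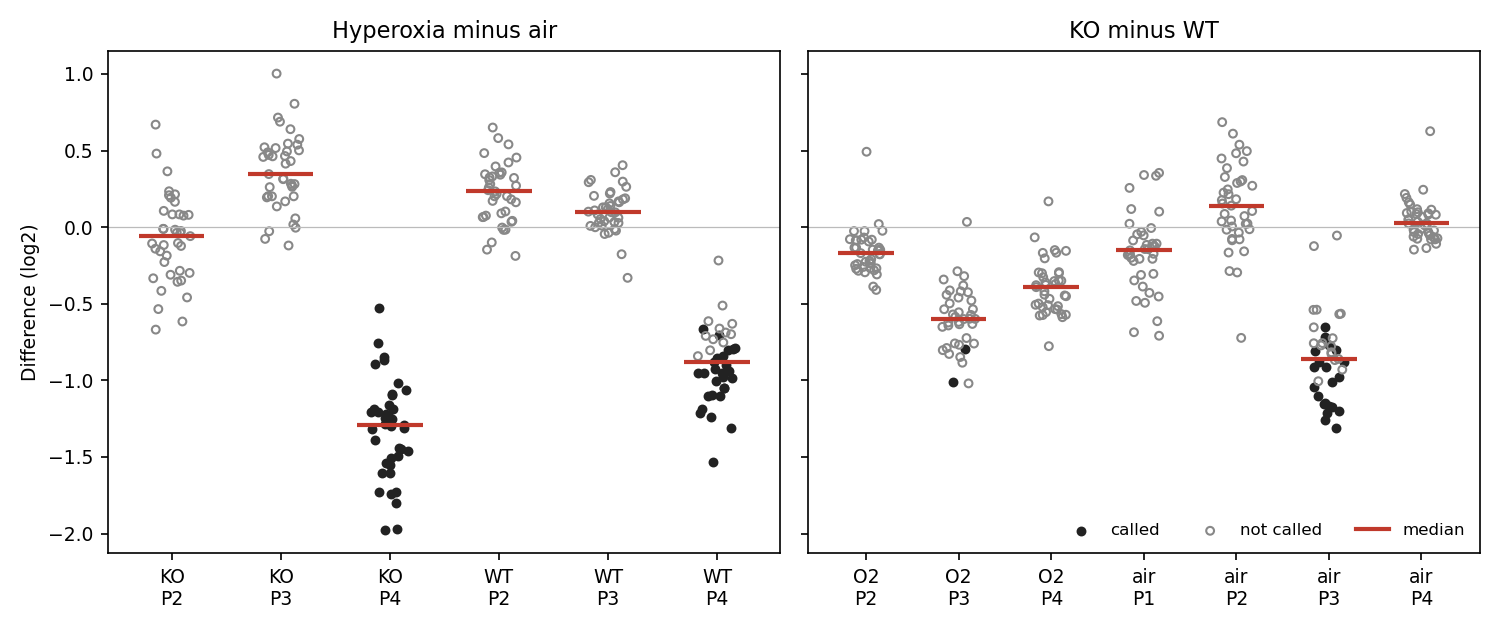
Differences of the 39 members (vertical axis, log2 units): hyperoxia minus air by genotype and age (left), and KO minus WT by exposure and age (right). Filled points are called members, open points are members not called, and red lines are medians, which lie at -1.29 for KO and -0.88 for WT lungs at P4 on the left and at -0.86 for air P3 on the right.

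On the earlier days of hyperoxia 0 of 39 members were called in either genotype by limma. At P2 the median was -0.06 in KO lungs (2 members at an unadjusted p under 0.05; 9.06% of all genes called) and 0.23 in WT lungs (1 member; 4.33%). At P3 it was 0.35 in KO lungs (4 members; 12.6%) and 0.10 in WT lungs (0 members; 5.40%). Without KO air P2 replicate 2, 5 members were called lower at P2 in KO lungs. The other direction appeared without every array high in another tissue (3 called higher, median 0.72) and with the tissue scores as covariates (1 called higher, median 1.14). Without WT O2 P2 replicate 3, 1 was called higher in WT lungs. With the tissue scores as covariates 0 were called in WT lungs, at a median of 0.27. Without KO air P3 replicate 1, 2 were called higher at P3 in KO lungs. Between KO and WT lungs, the test of their hyperoxia effects against each other called 0 members at P2 (1 at an unadjusted p under 0.05; 2.69% of all genes) and 0 at P3 (0; 1.76%). The median of this difference at P2 was -0.29, and it turned to 0.90 with the tissue scores as covariates and to 0.51 without the 2 KO arrays high in thymocyte genes, with 0 called in each.

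Within hyperoxia the called rise came by P2. At P2 in hyperoxia against P1 in air, 37 members were called higher in KO lungs (6.71% of all genes; median 1.59) and 39 in WT lungs (7.29%; median 1.50). At P3 against P2 in hyperoxia 0 were called in KO lungs (0 at an unadjusted p under 0.05; 1.93% of all genes; median 0.21) and 0 in WT lungs (27; 1.41%; median 0.68). At P4 against P3 in hyperoxia the differences were negative in 38 of 39 members in KO and in 39 in WT lungs, though few were called. In KO lungs 2 were called lower, Mki67 with -0.79 ± 0.29, adjusted p = 0.0453 and Mad2l1 with -0.73 ± 0.25, adjusted p = 0.0354 (12.2% of all genes; median -0.48). In WT lungs 2 were called lower, Depdc1a with -1.13 ± 0.35, adjusted p = 0.0223 and Ect2 with -0.74 ± 0.24, adjusted p = 0.0266 (8.38%; median -0.66). In all 39 members every WT array at P4 lay below every WT array at P3 under hyperoxia, against 19.8% of all genes. The KO count was 7 without KO O2 P4 replicate 3 and 0 without any 1 of the other 5 arrays. The WT count was 0 without WT O2 P3 replicate 2 or WT O2 P4 replicate 1 or 3, and it was 14 with every array high in another tissue left out. These day-to-day steps within hyperoxia were added after the other comparisons had been seen. At P4 against P2 in hyperoxia 0 members were called in KO lungs (1 at an unadjusted p under 0.05; 35.6% of all genes; median -0.21) and 0 in WT lungs (0; 21.6%; median 0.00).

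Between the genotypes under hyperoxia, 2 members were called lower in KO than in WT lungs at P3 (2.03% of all genes). Hmmr, which codes for a hyaluronan receptor that also binds the spindle, stood at 7.51, 7.52 and 7.55 in KO and at 8.28, 8.62 and 8.72 in WT lungs, -1.01 ± 0.31, adjusted p = 0.0495. Ect2 stood at 8.08, 8.14 and 8.22 in KO and at 8.63, 8.84 and 9.35 in WT lungs, -0.79 ± 0.24, adjusted p = 0.0455. In 38 of 39 members every KO array lay below every WT array, against 13.9% of all genes, and 20 members had an unadjusted p under 0.05 (median -0.60). Leaving out any 1 of the 6 arrays left 0 or 1 calls, and a fit on these 6 arrays alone called 24. At P2 under hyperoxia 0 members were called (1 at an unadjusted p under 0.05; 2.96% of all genes; median -0.17).

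The members kept one course. Over the 14 group means, the correlation of a member with the mean of the others had a median of 0.985 and was lowest for Foxm1 (0.817) and highest for Tpx2 (0.997), a description over groups that share their arrays. The highest group mean was that of KO air lungs at P4 for 22 members and of WT air lungs at P4 for 16. Pbk alone had its highest mean in WT hyperoxia lungs at P3. The lowest was that of KO air lungs at P1 for 32 members and of WT air lungs at P1 for 7. The range of the group means was 2.87 for the median member, 3.90 for Depdc1a, 1.54 for Kif4 and 0.82 for Foxm1. Of the 39 members 24 had further probe sets, 44 in all. Over the 42 arrays 25 of these 44 had a correlation above 0.8 with the one used, and 8 had one under 0.3, all at mean levels of 5.90 or less.

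**Figure D4:**
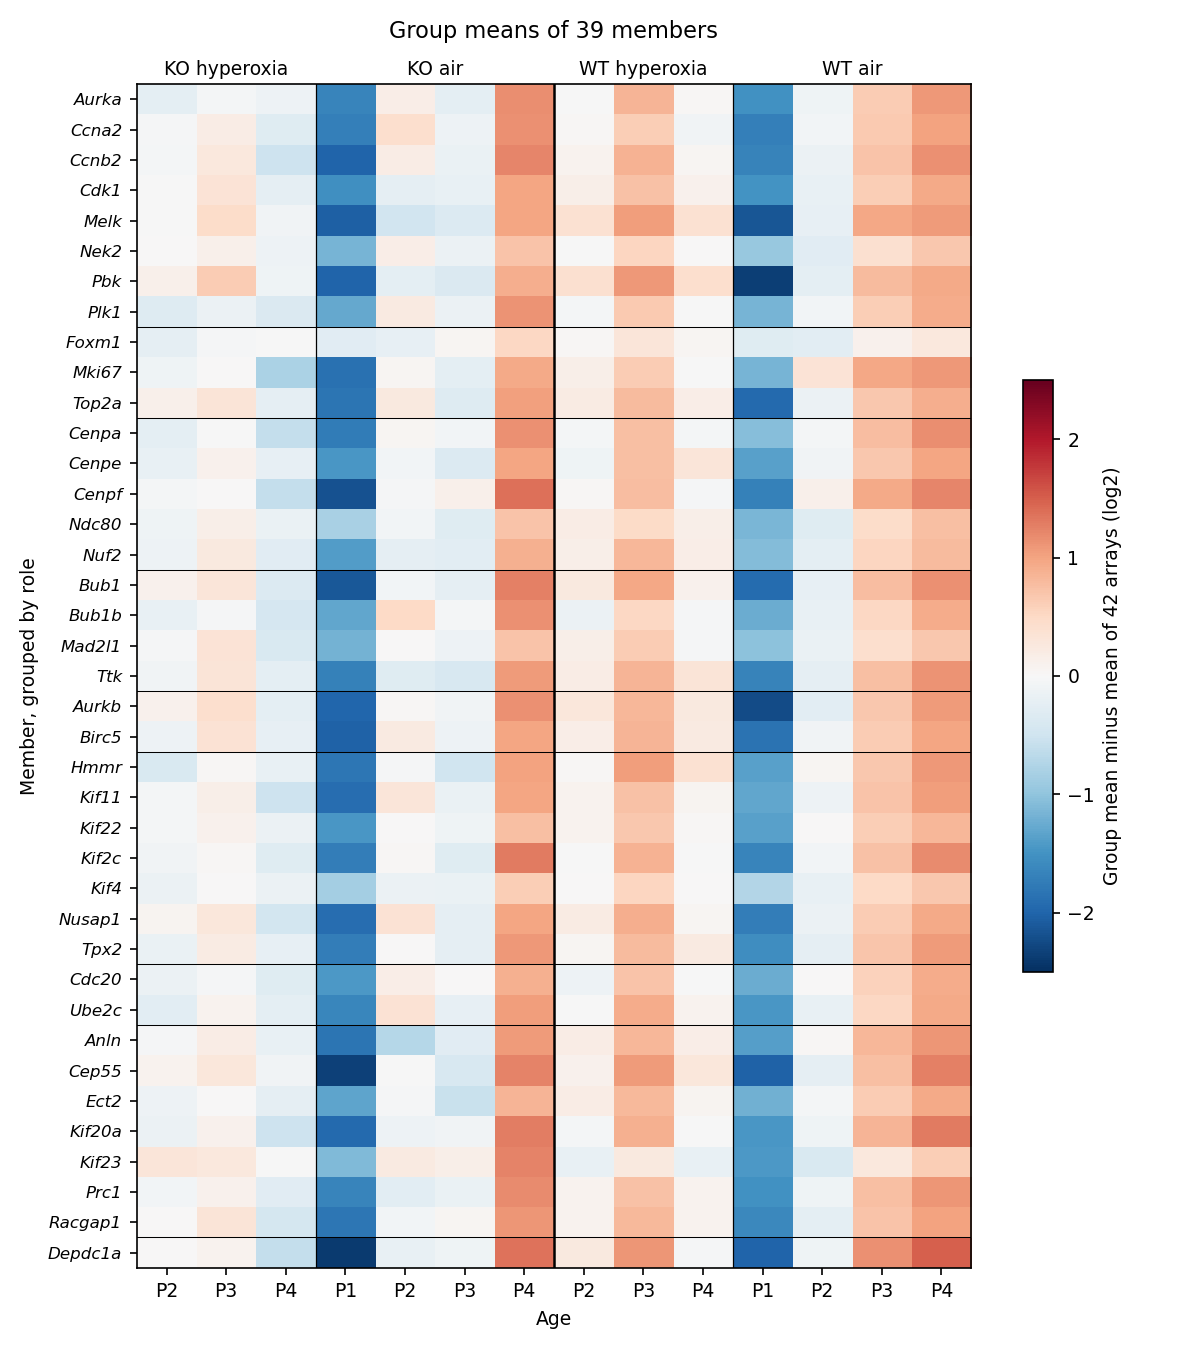
Group means of the 39 members (rows, grouped by role) as differences from each member's mean over the 42 arrays (colour, log2 units; red higher, blue lower). Columns are the 14 groups by genotype, exposure and age. Nearly all rows are bluest at P1 in air and reddest at P4 in air, and paler at P4 in hyperoxia.

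The kinases and cyclins of mitotic entry comprise 8 measured members. Cdk1, which with cyclins A and B drives entry into mitosis, read 7.75, 8.08 and 8.46 at P1, 8.50, 9.50 and 10.22 at P2, 9.16, 9.26 and 9.90 at P3, and 10.38, 10.74 and 10.76 at P4 in KO air lungs. In WT air lungs it read 7.99, 8.21 and 8.22 at P1, 9.03, 9.50 and 9.79 at P2, 10.14, 10.23 and 10.40 at P3, and 10.53, 10.59 and 10.60 at P4. KO and WT arrays overlapped at every age but P3, where all KO arrays were lower (-0.81 ± 0.29, adjusted p = 0.0403). In hyperoxia Cdk1 read 9.37, 9.72 and 9.77 at P2, 9.84, 10.05 and 10.05 at P3, and 8.94, 9.50 and 9.77 at P4 in KO lungs and 9.08, 10.04 and 10.21 at P2, 10.24, 10.38 and 10.47 at P3, and 9.61, 9.78 and 9.81 at P4 in WT lungs. At P4 the hyperoxia arrays were below the air arrays in both genotypes (-1.22 ± 0.29, adjusted p = 0.0012 in KO and -0.84 ± 0.29, adjusted p = 0.0262 in WT lungs).

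Plk1, the Polo kinase of centrosome maturation and spindle assembly, read 6.73, 7.0 and 7.28 at P1, 7.67, 8.44 and 9.39 at P2, 7.85, 8.0 and 8.54 at P3, and 9.24, 9.48 and 9.50 at P4 in KO air lungs and 7.03, 7.14 and 7.16 at P1, 7.87, 8.34 and 8.40 at P2, 8.78, 8.89 and 9.04 at P3, and 9.16, 9.20 and 9.29 at P4 in WT air lungs. Its hyperoxia levels were 7.73, 8.03 and 8.13 at P2, 7.99, 8.02 and 8.37 at P3, and 7.31, 7.90 and 8.54 at P4 in KO lungs and 7.55, 8.52 and 8.63 at P2, 8.75, 8.95 and 9.09 at P3, and 8.20, 8.25 and 8.35 at P4 in WT lungs. At P4 it was lower in hyperoxia, with -1.49 ± 0.29, adjusted p = 1.34e-04 in KO and -0.95 ± 0.29, adjusted p = 0.0122 in WT lungs. Melk read 5.72, 5.79 and 6.35 at P1, 6.97, 7.32 and 8.22 at P2, 7.36, 7.50 and 8.09 at P3, and 8.70, 9.11 and 9.13 at P4 in KO air lungs and 5.52, 6.02 and 6.02 at P1, 7.42, 7.79 and 8.16 at P2, 8.81, 8.89 and 9.19 at P3, and 8.92, 9.02 and 9.24 at P4 in WT air lungs. Under hyperoxia it read 7.76, 8.06 and 8.12 at P2, 8.29, 8.51 and 8.56 at P3, and 7.63, 7.89 and 8.16 at P4 in KO lungs and 7.43, 8.79 and 8.89 at P2, 8.74, 9.10 and 9.23 at P3, and 8.24, 8.26 and 8.58 at P4 in WT lungs. Its WT air arrays at P3 overlapped those at P4, whereas no KO air array at P3 reached the lowest WT array of that age. All 8 members of this role were called higher at P4 against P1 in both genotypes. At P4 8 were called lower in hyperoxia in KO lungs and 5 in WT lungs, where Melk, Nek2 and Pbk were not called. Pbk stood apart under hyperoxia. It read 9.60, 9.98 and 10.04 at P2, 10.37, 10.38 and 10.44 at P3, and 9.18, 9.65 and 10.10 at P4 in KO and 9.25, 10.60 and 10.61 at P2, 10.63, 10.81 and 11.07 at P3, and 10.06, 10.21 and 10.27 at P4 in WT hyperoxia lungs, against 10.43, 10.72 and 10.84 and 10.62, 10.63 and 10.83 in KO and WT air lungs at P4. The differences at P4 were -1.02 ± 0.36, adjusted p = 0.0273 in KO and -0.51 ± 0.36, adjusted p = 0.324 in WT lungs.

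Another 3 members are tied to chromatin and transcription. Mki67, which coats mitotic chromosomes and is the usual marker of dividing cells, read 7.65, 8.30 and 8.48 at P1, 9.23, 10.18 and 10.73 at P2, 9.56, 9.61 and 10.09 at P3, and 10.77, 11.02 and 11.06 at P4 in KO air lungs and 8.55, 8.86 and 9.15 at P1, 9.68, 10.37 and 10.98 at P2, 10.91, 10.98 and 11.01 at P3, and 11.07, 11.10 and 11.13 at P4 in WT air lungs. In hyperoxia it read 9.67, 10.00 and 10.04 at P2, 9.90, 9.93 and 10.22 at P3, and 8.78, 9.16 and 9.73 at P4 in KO lungs and 9.78, 10.26 and 10.42 at P2, 10.35, 10.64 and 10.92 at P3, and 9.95, 10.00 and 10.05 at P4 in WT lungs. At P4 the difference between hyperoxia and air was -1.73 ± 0.29, adjusted p = 1.53e-05 in KO and -1.10 ± 0.29, adjusted p = 0.00354 in WT lungs, and the lowest array of that age was a KO hyperoxia array. Top2a, the topoisomerase that untangles sister chromatids, read 7.59, 8.13 and 8.66 at P1, 9.06, 10.35 and 11.19 at P2, 9.39, 9.44 and 10.10 at P3, and 10.80, 11.03 and 11.10 at P4 in KO air lungs and 7.49, 8.19 and 8.34 at P1, 9.26, 10.06 and 10.13 at P2, 10.55, 10.62 and 10.70 at P3, and 10.79, 10.87 and 10.93 at P4 in WT air lungs. Its levels in hyperoxia were 9.85, 10.19 and 10.22 at P2, 10.19, 10.21 and 10.44 at P3, and 9.34, 9.78 and 10.10 at P4 in KO lungs and 9.45, 10.42 and 10.64 at P2, 10.55, 10.76 and 10.92 at P3, and 10.07, 10.14 and 10.17 at P4 in WT lungs. The hyperoxia difference at P4 was called in KO lungs (-1.24 ± 0.34, adjusted p = 0.0051), while in WT lungs it was -0.73 ± 0.34, adjusted p = 0.114.

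Foxm1, the transcription factor that switches on many of the other members, moved least by the probe set used. It read 7.27, 7.48 and 7.55 at P1, 7.21, 7.62 and 7.73 at P2, 7.68, 7.70 and 7.92 at P3, and 8.16, 8.19 and 8.34 at P4 in KO air lungs and 7.38, 7.42 and 7.44 at P1, 7.41, 7.45 and 7.49 at P2, 7.77, 7.79 and 7.91 at P3, and 7.88, 8.02 and 8.05 at P4 in WT air lungs. By P2 it had made 10.9% of its P4 rise in KO lungs and 6.4% in WT lungs, the lowest shares among the members. In hyperoxia it read 7.42, 7.44 and 7.64 at P2, 7.65, 7.68 and 7.75 at P3, and 7.47, 7.67 and 7.96 at P4 in KO lungs and 7.65, 7.70 and 7.91 at P2, 7.89, 8.03 and 8.12 at P3, and 7.72, 7.78 and 7.81 at P4 in WT lungs. At P4 it was lower in hyperoxia, with -0.53 ± 0.11, adjusted p = 2.63e-04 in KO lungs, and in WT lungs the difference was -0.22 ± 0.11, adjusted p = 0.141. Of its 3 further probe sets, 2 followed the one used over the 42 arrays (r = 0.818 and 0.899) and the other did not (r = 0.18). The one with r = 0.818, at a mean level of 7.63, varied more over the arrays than the one used (SD 0.433 against 0.263). The size of the Foxm1 changes thus depends on the probe set.

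**Figure D5:**
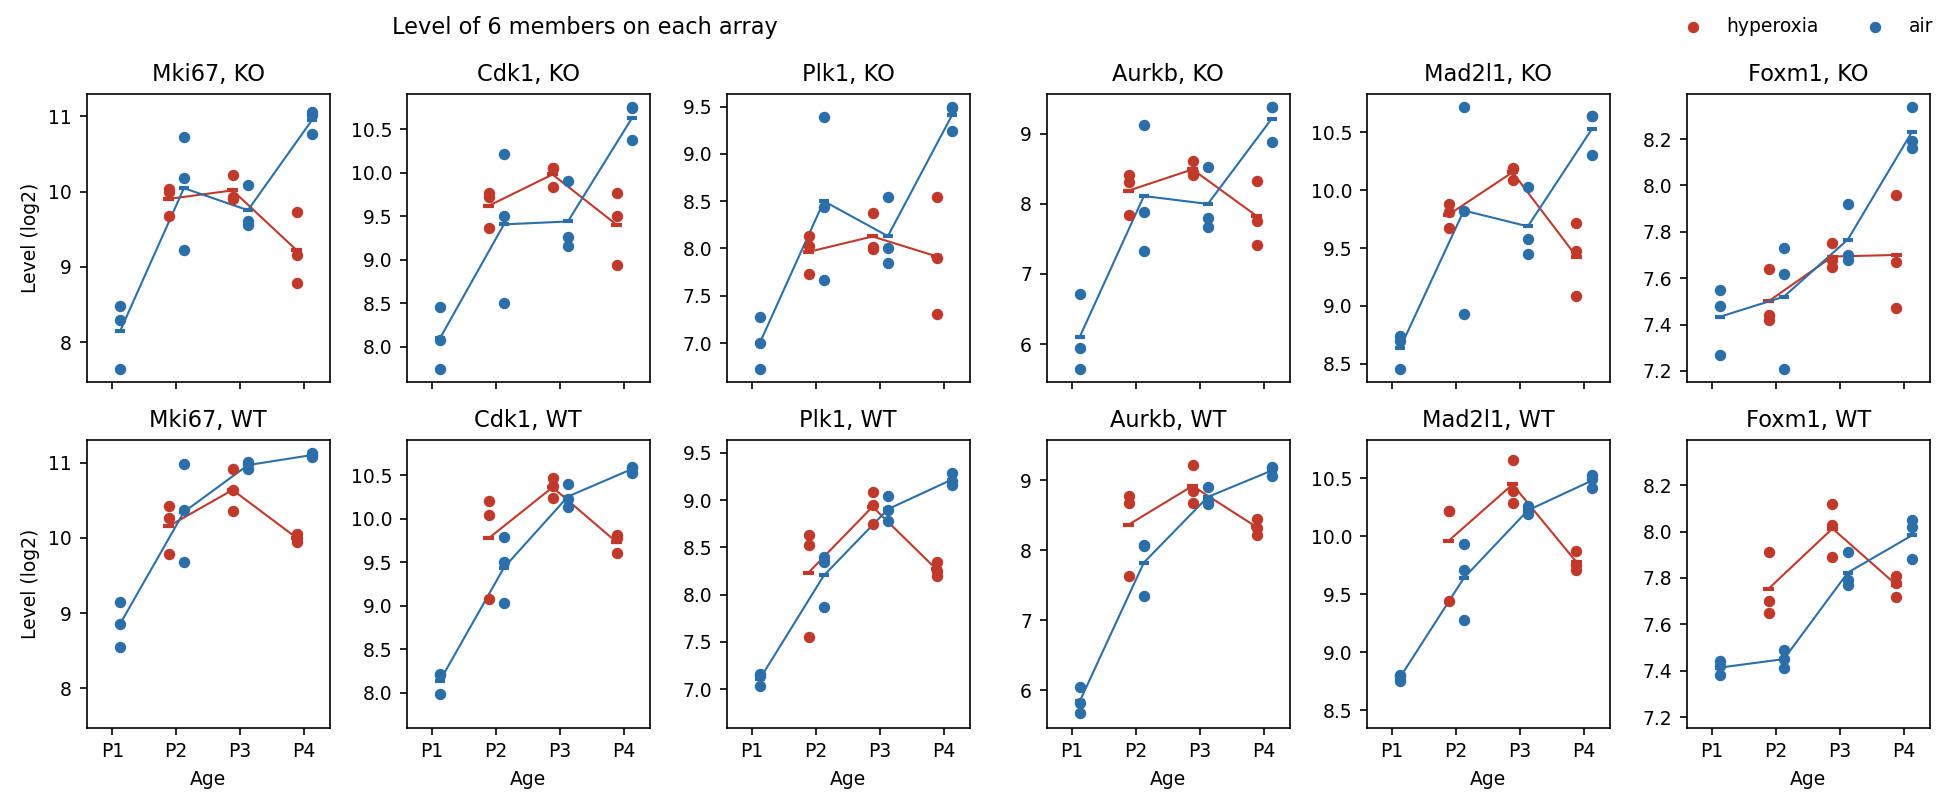
Level of 6 members (vertical axes, log2) by age (horizontal axis) in KO (upper row) and WT lungs (lower row). Points are arrays, short bars group means, red hyperoxia and blue air; the vertical scale differs between genes and is shared between genotypes. In each member the P4 hyperoxia mean lies below the P4 air mean.

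At the kinetochore, 5 members were measured. Cenpa, the histone H3 variant that marks centromeres, read 6.62, 6.85 and 7.22 at P1, 7.68, 8.73 and 9.67 at P2, 8.25, 8.27 and 9.24 at P3, and 9.50, 9.93 and 9.94 at P4 in KO air lungs and 7.51, 7.53 and 7.71 at P1, 8.09, 8.76 and 8.96 at P2, 9.33, 9.42 and 9.49 at P3, and 9.77, 9.78 and 9.86 at P4 in WT air lungs. Under hyperoxia it read 8.24, 8.39 and 8.55 at P2, 8.47, 8.68 and 8.78 at P3, and 7.57, 8.0 and 8.60 at P4 in KO lungs and 7.95, 8.85 and 9.01 at P2, 9.18, 9.45 and 9.57 at P3, and 8.53, 8.59 and 8.65 at P4 in WT lungs. It was called lower in hyperoxia at P4 in both genotypes (-1.73 ± 0.32, adjusted p = 7.43e-05 in KO and -1.21 ± 0.32, adjusted p = 0.00404 in WT lungs). Cenpf, a large protein of the outer kinetochore, was the other member of this role called in both. It read 5.04, 6.16 and 6.86 at P1, 7.44, 8.18 and 8.84 at P2, 7.99, 8.14 and 8.82 at P3, and 9.45, 9.61 and 9.63 at P4 in KO air lungs and 6.24, 6.58 and 6.69 at P1, 7.82, 8.49 and 8.66 at P2, 9.09, 9.09 and 9.22 at P3, and 9.36, 9.41 and 9.44 at P4 in WT air lungs. Under O2 it read 7.91, 8.20 and 8.31 at P2, 8.06, 8.10 and 8.43 at P3, and 7.01, 7.52 and 8.23 at P4 in KO lungs and 7.56, 8.48 and 8.63 at P2, 8.81, 8.88 and 9.18 at P3, and 7.96, 8.24 and 8.29 at P4 in WT lungs. At P4 the hyperoxia arrays of both genotypes lay below all air arrays. The microtubule-binding Ndc80 and Nuf2 and the kinesin Cenpe were called in KO but not in WT lungs.

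Of the checkpoint, which holds anaphase until every chromosome is attached, 4 members were measured and all 4 were called lower in hyperoxia at P4 in KO and in WT lungs. Bub1, a checkpoint kinase, read 5.64, 6.61 and 6.95 at P1, 7.42, 8.32 and 9.64 at P2, 7.91, 8.04 and 8.93 at P3, and 9.54, 9.86 and 9.93 at P4 in KO air lungs and 6.40, 6.54 and 6.88 at P1, 7.78, 8.57 and 8.58 at P2, 9.27, 9.27 and 9.36 at P3, and 9.63, 9.67 and 9.72 at P4 in WT air lungs. In hyperoxia it read 8.41, 8.74 and 8.74 at P2, 8.81, 8.84 and 8.86 at P3, and 7.69, 8.17 and 8.67 at P4 in KO lungs and 7.85, 9.20 and 9.24 at P2, 9.37, 9.43 and 9.65 at P3, and 8.50, 8.54 and 8.85 at P4 in WT lungs. The differences at P4 were -1.60 ± 0.38, adjusted p = 0.00119 in KO and -1.05 ± 0.38, adjusted p = 0.0355 in WT lungs. Mad2l1, which with its partners inhibits Cdc20, read 8.46, 8.70 and 8.74 at P1, 8.93, 9.82 and 10.72 at P2, 9.45, 9.58 and 10.03 at P3, and 10.30, 10.64 and 10.64 at P4 in KO air lungs and 8.75, 8.79 and 8.80 at P1, 9.28, 9.71 and 9.93 at P2, 10.19, 10.22 and 10.26 at P3, and 10.42, 10.49 and 10.53 at P4 in WT air lungs. Its hyperoxia levels were 9.67, 9.81 and 9.88 at P2, 10.09, 10.18 and 10.19 at P3, and 9.09, 9.47 and 9.72 at P4 in KO lungs and 9.44, 10.22 and 10.22 at P2, 10.29, 10.39 and 10.66 at P3, and 9.71, 9.75 and 9.87 at P4 in WT lungs, which gave -1.10 ± 0.25, adjusted p = 8.52e-04 in KO and -0.70 ± 0.25, adjusted p = 0.034 in WT lungs at P4. In both genes the WT hyperoxia arrays lay below the WT air arrays at P4. At P3 they lay above them, as in 5 of 39 members (12.8%) against 13.7% of all genes, and no member was called.

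The chromosomal passenger complex corrects faulty attachments and later steers cytokinesis, and 2 of its members were measured. Its kinase Aurkb read 5.65, 5.95 and 6.72 at P1, 7.33, 7.88 and 9.13 at P2, 7.67, 7.80 and 8.53 at P3, and 8.89, 9.38 and 9.39 at P4 in KO air lungs and 5.67, 5.82 and 6.05 at P1, 7.34, 8.06 and 8.07 at P2, 8.66, 8.72 and 8.90 at P3, and 9.06, 9.17 and 9.18 at P4 in WT air lungs. Under O2 it read 7.84, 8.32 and 8.41 at P2, 8.41, 8.45 and 8.62 at P3, and 7.41, 7.75 and 8.33 at P4 in KO lungs and 7.63, 8.68 and 8.78 at P2, 8.68, 8.85 and 9.22 at P3, and 8.22, 8.32 and 8.45 at P4 in WT lungs. Survivin, the product of Birc5, places the complex on centromeres. The Birc5 levels were 6.02, 6.94 and 7.51 at P1, 7.88, 9.09 and 10.22 at P2, 8.48, 8.48 and 9.19 at P3, and 9.54, 9.99 and 9.99 at P4 in KO air lungs and 6.82, 6.86 and 7.30 at P1, 8.27, 8.84 and 9.16 at P2, 9.28, 9.49 and 9.65 at P3, and 9.78, 9.81 and 9.91 at P4 in WT air lungs. Its hyperoxia levels were 8.47, 8.82 and 8.90 at P2, 9.07, 9.26 and 9.28 at P3, and 8.23, 8.54 and 9.13 at P4 in KO lungs and 8.40, 9.22 and 9.43 at P2, 9.59, 9.61 and 9.91 at P3, and 8.93, 9.14 and 9.17 at P4 in WT lungs. At P4 both genes were called lower in hyperoxia in KO lungs (-1.39 ± 0.33, adjusted p = 0.00127 for Aurkb and -1.21 ± 0.36, adjusted p = 0.0102 for Birc5). Neither was called in WT lungs, where the differences were -0.80 ± 0.33, adjusted p = 0.0669 and -0.75 ± 0.36, adjusted p = 0.129, although their arrays did not overlap.

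Among 7 spindle motors and microtubule-binding members, Kif11, the kinesin that pushes the spindle poles apart, read 5.45, 5.48 and 6.14 at P1, 6.98, 7.78 and 8.95 at P2, 7.16, 7.22 and 7.90 at P3, and 8.35, 8.64 and 8.73 at P4 in KO air lungs and 6.02, 6.22 and 6.67 at P1, 7.06, 7.54 and 7.82 at P2, 8.23, 8.30 and 8.39 at P3, and 8.47, 8.69 and 8.76 at P4 in WT air lungs. Under hyperoxia it read 7.42, 7.50 and 7.71 at P2, 7.62, 7.73 and 7.86 at P3, and 6.51, 7.09 and 7.61 at P4 in KO lungs and 6.99, 7.98 and 8.10 at P2, 8.07, 8.30 and 8.63 at P3, and 7.49, 7.74 and 7.74 at P4 in WT lungs. The hyperoxia arrays at P4 were apart from the air arrays, with -1.51 ± 0.32, adjusted p = 4.75e-04 in KO and -0.98 ± 0.32, adjusted p = 0.0216 in WT lungs. All 7 members of this role were called lower in KO lungs in that comparison and 5 in WT lungs, where Tpx2, which activates Aurora A on the spindle, and Hmmr were not called. Kif2c, which takes microtubules apart at centromeres, read 5.51, 5.88 and 6.38 at P1, 7.0, 7.45 and 8.60 at P2, 6.92, 7.17 and 7.94 at P3, and 8.82, 9.01 and 9.03 at P4 in KO air lungs and 5.93, 5.93 and 6.17 at P1, 7.08, 7.81 and 7.84 at P2, 8.21, 8.40 and 8.56 at P3, and 8.73, 8.81 and 8.98 at P4 in WT air lungs. Kif4 read 7.11, 7.27 and 7.64 at P1, 7.55, 8.08 and 8.54 at P2, 7.74, 7.98 and 8.40 at P3, and 8.76, 8.79 and 8.87 at P4 in KO air lungs and 7.33, 7.37 and 7.70 at P1, 7.56, 8.21 and 8.28 at P2, 8.65, 8.71 and 8.71 at P3, and 8.83, 8.86 and 8.95 at P4 in WT air lungs. In air at P3, 6 of the 7 were called lower in KO than in WT lungs, and in both Kif2c and Kif4 the KO arrays of that age lay below the WT arrays.

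Cdc20 and Ube2c hand substrates and ubiquitin to the anaphase-promoting complex. Cdc20 read 8.45, 8.62 and 9.01 at P1, 9.50, 10.25 and 11.09 at P2, 9.84, 9.96 and 10.59 at P3, and 10.88, 11.07 and 11.11 at P4 in KO air lungs and 8.76, 8.93 and 8.97 at P1, 9.74, 10.33 and 10.35 at P2, 10.53, 10.77 and 10.79 at P3, and 11.01, 11.05 and 11.12 at P4 in WT air lungs. In hyperoxia it read 9.81, 10.00 and 10.11 at P2, 10.01, 10.05 and 10.25 at P3, and 9.32, 9.86 and 10.26 at P4 in KO lungs and 9.44, 10.22 and 10.32 at P2, 10.72, 10.72 and 11.04 at P3, and 9.90, 10.21 and 10.21 at P4 in WT lungs. At P4 it was called lower in hyperoxia in KO (-1.21 ± 0.26, adjusted p = 5.53e-04) and in WT lungs (-0.95 ± 0.26, adjusted p = 0.0061). Ube2c was called lower in both as well, with -1.30 in KO and -0.85 in WT lungs.

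The 7 members of the midzone and cytokinesis were all called lower in hyperoxia at P4 in both genotypes. Prc1, which bundles the antiparallel microtubules of the central spindle, read 6.94, 7.06 and 7.51 at P1, 7.83, 8.56 and 9.31 at P2, 8.36, 8.38 and 9.23 at P3, and 9.75, 10.09 and 10.18 at P4 in KO air lungs and 6.97, 7.43 and 7.56 at P1, 8.14, 8.92 and 9.11 at P2, 9.52, 9.52 and 9.67 at P3, and 9.89, 9.90 and 9.99 at P4 in WT air lungs. In hyperoxia its levels were 8.52, 8.85 and 8.90 at P2, 8.87, 8.92 and 9.03 at P3, and 7.99, 8.67 and 8.97 at P4 in KO lungs and 8.11, 9.27 and 9.34 at P2, 9.48, 9.54 and 9.68 at P3, and 8.77, 8.90 and 9.10 at P4 in WT lungs. The differences at P4 were -1.46 ± 0.30, adjusted p = 2.89e-04 in KO and -1.0 ± 0.30, adjusted p = 0.0114 in WT lungs. Cep55, which acts in the final cut between daughter cells, read 5.49, 5.53 and 6.77 at P1, 7.48, 8.0 and 9.29 at P2, 7.51, 7.51 and 8.54 at P3, and 9.23, 9.54 and 9.71 at P4 in KO air lungs and 6.11, 6.27 and 6.34 at P1, 7.78, 7.89 and 8.46 at P2, 8.89, 9.01 and 9.17 at P3, and 9.44, 9.52 and 9.61 at P4 in WT air lungs. Under O2 it read 8.05, 8.43 and 8.55 at P2, 8.44, 8.53 and 8.65 at P3, and 7.75, 8.13 and 8.65 at P4 in KO lungs and 7.51, 8.78 and 8.81 at P2, 9.18, 9.21 and 9.61 at P3, and 8.46, 8.47 and 8.70 at P4 in WT lungs. Its P4 differences were -1.32 ± 0.35, adjusted p = 0.00396 in KO and -0.98 ± 0.35, adjusted p = 0.0356 in WT lungs. Over the 7 members, which include the centralspindlin genes Kif23 and Racgap1, and the actin-ring scaffold Anln, the median was -1.32 in KO and -0.94 in WT lungs. Compared between genotypes in air at P3, 4 of the 7 were called lower in KO lungs, at a median of -0.93.

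Other genes of the same process were taken from 6 lists with 116 measured genes. At P4 against P1 in air, 83 were called higher and 1 lower in KO lungs, and 83 higher and 5 lower in WT lungs. Of all genes, 8.09% were called higher in KO and 11.2% in WT lungs. At P4, hyperoxia against air, 79 were called lower and 2 higher in KO lungs and 48 lower and 4 higher in WT lungs. Of all genes, 14.7% were called lower in KO and 12.5% in WT lungs. In air at P3, 66 were called lower and 2 higher in KO than in WT lungs, where 12.7% of all genes were called lower. The medians of the 116 were -0.55 and -0.37 for hyperoxia in KO and WT lungs and -0.43 for KO against WT at P3. The lists differed in how many of their genes moved. Of 20 entry and exit regulators, 16 were called lower in hyperoxia at P4 in KO and 10 in WT lungs, led by Sgo2a, a protector of cohesin, and Cdca3 in KO (-1.47 and -1.40) and by securin, Pttg1, in WT lungs (-1.03). Of 21 kinesins and spindle factors, 14 were called lower in KO and 9 in WT lungs, and Aspm, a spindle-pole protein, moved most in both (-2.04 ± 0.30, adjusted p = 2.72e-06 in KO and -1.35 ± 0.30, adjusted p = 8.28e-04 in WT lungs).

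Of 26 kinetochore and checkpoint genes, 20 were called lower in KO and 10 in WT lungs in that comparison, led by Cenpp of the inner kinetochore with -1.53 in KO and -0.82 in WT lungs. The shares of all genes called lower there were 14.7% in KO and 12.5% in WT lungs. Of 17 condensin and cohesin genes, 12 were called lower in KO and 7 in WT lungs, with the condensin subunits Ncapd2 and Ncapg leading in KO lungs (-1.18 and -1.06). Of 14 anaphase-promoting complex subunits, 6 were called lower in KO and 4 in WT lungs, led by Anapc13 (-0.69 in KO and -0.45 in WT lungs). Of 18 DREAM, B-Myb and E2F factors, 11 were called lower and 1 higher in KO and 8 lower and 1 higher in WT lungs. The repressor E2f8 and the B-MYB gene Mybl2 led in KO lungs (-1.18 and -0.88), and E2f2 and the pocket protein gene Rbl1 in WT lungs (-1.05 and -0.60). In air at P3, KO lungs were lower in E2f7 and Rbl1 (-1.24 and -1.19), in the condensin genes Ncapg2 and Ncapg (-1.61 and -1.27) and in Spc25 of the NDC80 complex (-1.40).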

How the data were processed

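Total RNA of lung homogenates of 42 mice was hybridised, 1 mouse per array, in 14 groups of 3 taken from the sample titles, so the replicates are animals. The values are deposited log2 levels per probe set, made by the authors with GCOS and RMA per the submitters' processing notes, with versions not given in the sources used here. They were used as deposited, with no further normalisation. Of 45101 probe sets, 34958 carry exactly 1 symbol in the platform annotation, 932 several and 9211 none. The brightest probe set by mean over the 42 arrays stood for each of 18194 genes. Through their Entrez numbers 34754 of the probe sets with 1 symbol matched RefSeq's genes (GRCm38.p6), and 0 symbols differed.

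The means of the 14 groups were fitted over all 42 arrays with limma 3.58.1 (R 4.3.3, with version 1.17.8 of data.table; 28 residual degrees of freedom, 31.4 after moderation), and 35 comparisons were made, 6 of them added after seeing the data. P-values were two-sided and adjusted by Benjamini-Hochberg over all genes in each comparison, with calls under 0.05. With 3 arrays a group, their number limits the precision. The procedure was run on simulated data with independent noise for each gene. These data held no shared movement of members and no arrays high in another tissue, so they cannot judge the effect of either. The members, roles, lists and tests were chosen with earlier results of these data known, so the patterns are no independent support for one another. All members could be named, and 14 of them were chosen for values on every array. The others named include those with the 3 largest or the smallest called differences of a comparison, and the 2 largest called differences of each list of other mitosis genes. Some were named because they were not called, stood at the end of a range or describe a role. Among these, Cenpf and Cep55 also have values given on every array. The alternatives were cyclic loess, array weights, robust variances with an intensity trend, the upper 60 percent of genes by level, the mean of all probe sets, only the arrays of the comparison, the replicate number as a block, scores of other tissues as covariates, and leaving out each array. Leaving out the 2 arrays high in thymocyte genes, or the 13 arrays with a score above 2 for another tissue, was added after seeing the data. Promoter sequences are RefSeq's.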

Additional observations from a re-analysis of the deposited data

Results flagged for a closer look

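In 4 members the change between P1 and P3 in air differed between the genotypes by the test of the difference itself, KO minus WT, in limma over all genes. They are 10.3% of the 39 members, near the 7.92% of all genes called in the same direction. The difference was -1.412 for Melk (adjusted p = 0.0196), -1.504 for Pbk (adjusted p = 0.0455), -1.077 for Ect2 (adjusted p = 0.0317) and -1.102 for Ndc80 (adjusted p = 0.0392), each with 3 mice a group. The 4 genes were picked by this call, so the smaller change in KO lungs restates it and is no further result. With the scores of other tissues as covariates the difference was -1.16 for Melk (adjusted p = 0.0506), -1.14 for Pbk (adjusted p = 0.107), -0.79 for Ect2 (adjusted p = 0.107) and -0.86 for Ndc80 (adjusted p = 0.0967). Over the alternatives that leave out 1 array the adjusted p ran up to 0.0673 for Melk, 0.136 for Pbk, 0.122 for Ect2 and 0.104 for Ndc80. KO air P3 replicate 2 is the array high in skeletal muscle genes (score 3.988), and the part of that tissue in these differences was not tested.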

How the results depend on the processing

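The members' median changed sign under at least 1 alternative in 9 comparisons, all with 0 called members. In air at P3 against P2 in KO lungs it was -0.17, against 1.06 with tissue covariates, 0.75 without all tissue-high arrays and 0.59 without the thymocyte-high arrays. For KO against WT in air at P2 it was 0.14, against -1.11 with tissue covariates. For hyperoxia against air at P2 in KO lungs it was -0.06, against 1.14 with tissue covariates, and for KO against WT in that effect it was -0.29, against 0.90. The counts of 39 called members at P4 against P1 in air, in both genotypes, and for hyperoxia against air at P4 in KO lungs stayed within 1.5 times under every alternative run, and so did the counts at P2 against P1 in WT air lungs and at P2 in hyperoxia against P1 in air in both genotypes. Leaving out all arrays high in another tissue emptied the WT air P2 group, so 30 of 35 comparisons could be fitted. The other counts of called members moved as follows, and the cause was not tested except where fewer arrays entered by construction. For P2 against P1 in KO air lungs it was 37, against 0 on the comparison's own arrays, without the thymocyte-high arrays, without all tissue-high arrays and with tissue covariates. For P3 against P2 in KO air lungs it was 0, against 1 higher with array weights, with tissue covariates and with cyclic loess and 6 higher without all tissue-high arrays, and 0 to 14 with 1 array left out. For P4 against P3 in KO air lungs it was 39, against 4 higher with tissue covariates, and 24 to 39 with 1 array left out. For P3 against P2 in WT air lungs it was 3, against 35 higher with array weights, 0 on the comparison's own arrays, 15 higher without the thymocyte-high arrays and 6 higher over the upper 60 percent of genes and with the replicate block, and 0 to 1 with 1 array left out. For KO against WT in air at P1 it was 0, against 2 in both directions with array weights and 1 lower with tissue covariates. KO against WT in air at P2 gave 0, against 1 higher with array weights and 1 lower with tissue covariates, with probe sets averaged and with the replicate block, and 0 to 7 with 1 array left out. For KO against WT in air at P3 it was 21, against 37 lower with array weights, 32 lower without the thymocyte-high arrays and 9 lower with tissue covariates, and 6 to 34 with 1 array left out. KO against WT in air at P4 gave 0, against 1 higher with array weights and on the comparison's own arrays. For KO against WT in the change between P1 and P3 it was 4, against 22 lower with array weights and 0 with tissue covariates, and 0 to 5 with 1 array left out. KO against WT in the change between P3 and P4 gave 0, against 33 higher with array weights, 12 higher on the comparison's own arrays, 2 higher without the thymocyte-high arrays and 1 higher with cyclic loess, over the upper 60 percent of genes and with the replicate block, and 0 to 3 with 1 array left out. For hyperoxia against air at P2 in KO lungs it was 0, against 3 higher without all tissue-high arrays and 1 higher with tissue covariates and with probe sets averaged, and 0 to 5 with 1 array left out. For hyperoxia against air at P2 in WT lungs it was 0, against 5 higher with array weights, and 0 to 1 with 1 array left out. For hyperoxia against air at P3 in KO lungs it was 0, against 10 higher with array weights, 3 higher on the comparison's own arrays and 2 higher without the thymocyte-high arrays, without all tissue-high arrays and over the upper 60 percent of genes, and 0 to 2 with 1 array left out. For hyperoxia against air at P4 in WT lungs it was 27, against 15 to 22 with 1 array left out. For P3 against P2 in KO hyperoxia lungs it was 0, against 4 higher on the comparison's own arrays. For P3 against P2 in WT hyperoxia lungs it was 0, against 4 higher with array weights, 2 higher without the thymocyte-high arrays and 1 higher with the replicate block. For P4 against P3 in KO hyperoxia lungs it was 2, against 8 lower with array weights, 11 lower without all tissue-high arrays, 13 lower with tissue covariates, 0 with cyclic loess and 1 lower with a trend and robust variances and with probe sets averaged, and 0 to 7 with 1 array left out. For P4 against P3 in WT hyperoxia lungs it was 2, against 30 lower with array weights, 37 lower on the comparison's own arrays, 17 lower without the thymocyte-high arrays, 14 lower without all tissue-high arrays, 0 with tissue covariates, 5 lower with cyclic loess and with probe sets averaged and 9 lower over the upper 60 percent of genes and with the replicate block, and 0 to 2 with 1 array left out. For P4 against P2 in KO hyperoxia lungs it was 0, against 1 lower with array weights, without the thymocyte-high arrays and over the upper 60 percent of genes, 2 lower without all tissue-high arrays and 3 lower with tissue covariates, and 0 to 1 with 1 array left out. KO against WT in hyperoxia at P2 gave 0, against 2 lower with array weights and 1 lower without all tissue-high arrays. For KO against WT in hyperoxia at P3 it was 2, against 26 lower with array weights, 24 lower on the comparison's own arrays, 6 lower without the thymocyte-high arrays, 8 lower without all tissue-high arrays and 1 lower with tissue covariates and with a trend and robust variances, and 0 to 1 with 1 array left out. KO against WT in hyperoxia at P4 gave 0, against 1 lower with array weights, without the thymocyte-high arrays, without all tissue-high arrays and with tissue covariates, and 0 to 1 with 1 array left out. The range of the member score over the arrays was 3.17, against 2.533 with probe sets averaged. Whether the replicate numbers stand for batches is not stated in the sample titles. Over 273 pairs of same-numbered arrays the correlation of deviations had a median of 0.012, against 0.015 for other numbers. The highest was 0.688, and 77 exceeded 0.1. A median over all pairs cannot exclude batches shared by some groups. The block on the replicate number moved no other count of called members by over 1.5 times. With 3 arrays a group, their number limits the precision, and 13 of the 42 arrays are also high in marker genes of another tissue.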
